A study of Mus musculus with 6 samples.

Results

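The genes described here are 10 transcriptional targets of p53 that act in cell death: the receptor genes *Fas*, *Tnfrsf10b* and *Eda2r*, the Bcl2 family genes *Bax*, *Bbc3* and *Pmaip1*, and the effector genes *Aen*, *Zmat3*, *Phlda3* and *Perp*. They were taken by gene symbol from a table of counts for 19309 genes, in which each of the 10 symbols occurred once. All 10 passed the filter on low counts, an average above 5 counts per library, which 13785 genes passed. In bone marrow-derived macrophages polarized to the M2c state, 5 of the 10 fell in cells without the soluble epoxide hydrolase (sEH): *Eda2r* 4.61-fold, *Tnfrsf10b* 2.52-fold, *Zmat3* 1.92-fold, *Phlda3* 1.58-fold and *Aen* 1.54-fold. The other 5 were not past the criteria, and none was called higher. Over all tested genes 1.1% were called lower. The 5 calls depended on single libraries, and without wild-type replicate 2 or wild-type replicate 3 none of the 10 genes was called.

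The 6 libraries hold bulk RNA of cultured M2c macrophages, 3 from wild-type and 3 from sEH-/- mice. The sEH, encoded by *Ephx2*, hydrolyzes fatty acid epoxides. It is deleted constitutively in the sEH-/- mice, so that the cells had developed without the enzyme. The study compared littermates of the same age and strain and states that, from its comparison of the sexes on, bone marrow of female mice was used. Monocytes were isolated from the bone marrow of mice aged 8 to 10 weeks. Cells of both genotypes grew for 7 days in 15 ng/mL M-CSF and 15 ng/mL GM-CSF, were turned into M1 macrophages by 10 ng/mL LPS and 1 ng/mL IFN-γ, and were repolarized to M2c macrophages by 10 ng/mL TGF-β1. In the labels the M1 step lasted 24 h and the TGF-β1 step 48 h, whereas in the methods they lasted 12 h and either 24 h or 48 h. Libraries of untreated or M1-polarized cells were not analysed here, so that a difference is one between genotypes after the whole protocol.

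The transcription factor p53 is stabilized when DNA or ribosome synthesis is disturbed, and it binds a motif made of a pair of decamers. Its targets include inhibitors of the cell cycle, its own negative regulator *Mdm2* and genes that favor apoptosis. Among the last, the death receptors Fas and Tnfrsf10b at the cell surface recruit the adaptor Fadd and caspase 8. Bbc3 (Puma) and Pmaip1 (Noxa) block the protective members of the Bcl2 family and thereby free Bax and Bak1 to permeabilize mitochondria.

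Transcripts of *Ephx2* served as the check of the genotype, with 4, 2 and 1 counts in sEH-/- libraries and 26, 49 and 57 counts in wild-type libraries (log2 ratio −4.05 ± 0.43 SE, adjusted p = 0.0042). Library totals lay between 4400197 and 6096440 counts. Markers of macrophages were abundant, with a summed level between 2290 and 2860 CPM (counts relative to the size of each library) in sEH-/- and between 2070 and 2600 CPM in wild-type libraries. No tested marker on the 6 lists of cell types was called. Tested were all 11 macrophage, 7 of 9 stromal, 3 of 8 dendritic cell, 2 of 10 neutrophil, 1 of 10 lymphocyte and 1 of 7 erythroid markers. The lowest adjusted p was that of *S100a8*, which had a higher level in sEH-/- libraries (log2 ratio 0.54, adjusted p = 0.057, edgeR). Summed neutrophil markers lay between 284 and 360 CPM and between 266 and 317 CPM, respectively, nearly all from *Mmp8* and *S100a8*. The neutrophil markers *S100a9*, *Camp*, *Ngp*, *Ltf* and *Elane* had at most 10 counts in any library, and *Ly6g*, *Retnlg* and *Mpo* were not among the counted genes. Summed dendritic cell markers lay, in the same order, between 27.5 and 58.4 CPM and between 42.2 and 59.4 CPM. The ranges were 16.4 to 35.9 and 20.7 to 30.7 CPM for lymphocyte markers and 0.605 to 1.62 and 0.811 to 1.97 CPM for the single erythroid marker, *Klf1*. Stromal markers ranged from 16.5 to 35.1 CPM in sEH-/- and from 12.3 to 67.5 CPM in wild-type libraries, with the highest level in wild-type replicate 2, which held 121 *Col1a1* and 171 *Col1a2* counts. The part of other cell types in the results was not tested. In bulk RNA, fewer cells of a type and less RNA per cell cannot be told apart.

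CPM values use library sizes corrected by edgeR's TMM method. The log2 ratio is the fitted log2 fold change of sEH-/- over wild-type, given with its standard error (± SE). Its p-value comes from edgeR's quasi-likelihood test, adjusted over all 13785 tested genes by the method of Benjamini and Hochberg. A gene was called at an adjusted p below 0.05 and a change of about 1.5-fold or more in either direction, the criteria of the study. By these criteria 152 genes were called lower, which is 1.1% of the tested genes, and 208 higher. All 3 sEH-/- libraries lay below all 3 wild-type libraries in 14.5% of the tested genes, and the smallest two-sided p that an exact permutation test of 3 libraries against 3 can give is 0.1. Against these backgrounds, 5 of the 10 targets were called lower and 7 of the 10 had non-overlapping libraries. The 10 genes were chosen with earlier results of these data known, so that the backgrounds give no test of the 10 as a set. Of the 10, 8 were past the fold threshold and lower, among them *Perp*, which had from 1 to 14 counts per library. The least decreased of these 8 was *Bbc3*, and 5.61% of all tested genes had a lower log2 ratio than *Bbc3*. The log2 ratios ranged from −2.2 to −0.0828 with a median of −0.685, where the median over all tested genes was −0.000922.

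**Figure D1:**
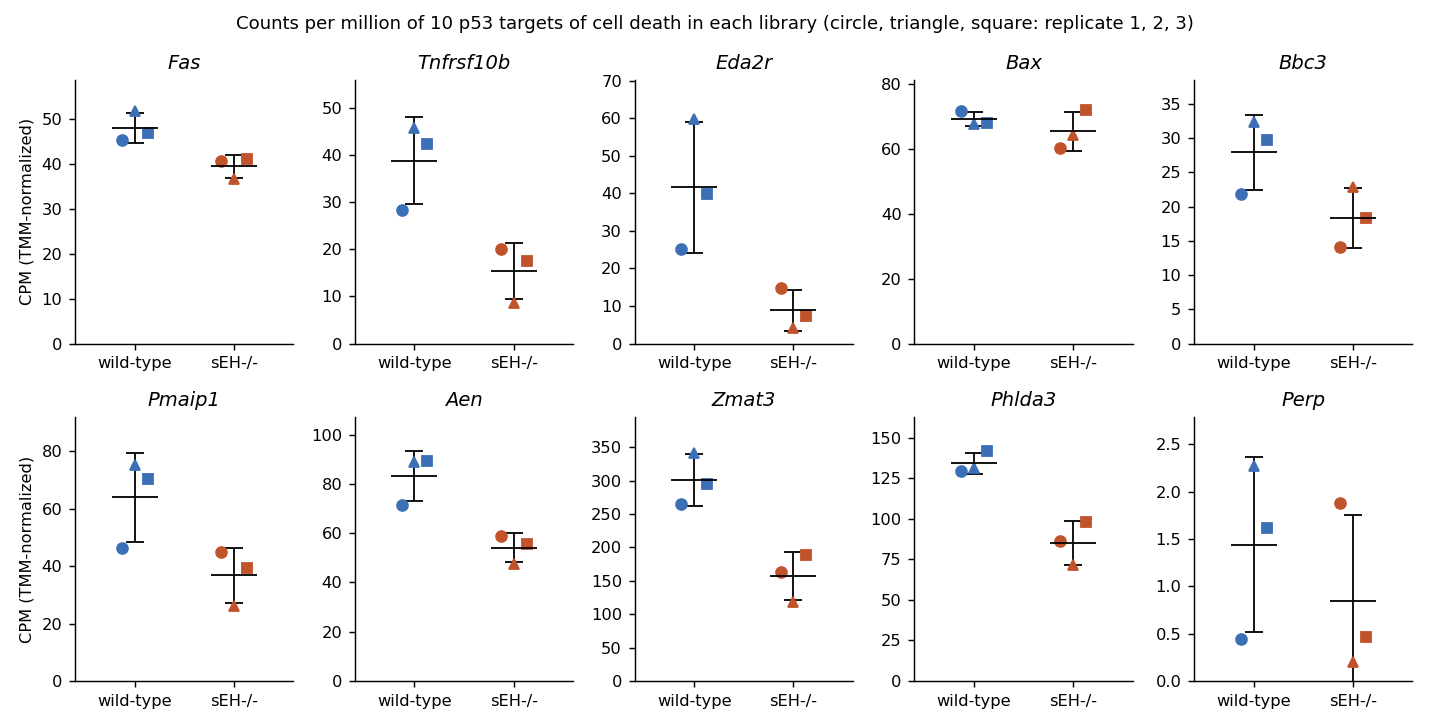
TMM-normalized CPM of the 10 p53 targets in each library, with a linear axis from 0 for every gene. Blue points are wild-type and orange points sEH-/- libraries (circle, triangle and square for replicates 1, 2 and 3), the long bar is the mean and the whiskers are the SD of 3 libraries, with the lower whisker of sEH-/- *Perp* reaching below the axis. The genotypes do not overlap in 7 panels and overlap in those of *Bax*, *Bbc3* and *Perp*.

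Sequences upstream of the targets were taken from RefSeq for the genome build GRCm38.p6, which holds promoters of *Fas*, *Eda2r*, *Bax*, *Bbc3*, *Aen* and *Phlda3* among the 10. A promoter here is the 250 bases before a start site and 50 bases from it on. The p53 motif was searched on both strands as a pair of adjoining decamers without a spacer, with at most 3 of 20 bases off the consensus and the central C and G of each decamer kept, a limit chosen with the data known. Of 32851 RefSeq promoters of the same length, 1.38% held such a pair and 8.36% held an exact decamer. Overlapping start sites of a gene share sequence, and decamers can lie inside a pair. The promoters that hold a match are shown first, with the match in capitals, 5′ to 3′ on the strand of the gene.

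In *Bbc3* the pair began 97 bases before the start site at position 16309583 of chromosome 7 and had 3 bases off the consensus. The 250 bases before this start, chr7:16309333-16309582 on the plus strand, read as follows.
Bbc3: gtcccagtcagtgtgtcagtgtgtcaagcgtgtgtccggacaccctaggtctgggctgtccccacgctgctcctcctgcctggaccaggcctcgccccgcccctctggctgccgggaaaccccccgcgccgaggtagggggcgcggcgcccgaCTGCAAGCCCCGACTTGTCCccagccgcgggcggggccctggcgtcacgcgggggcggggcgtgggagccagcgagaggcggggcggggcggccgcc
In *Aen* the pair began 121 bases before the start site at position 78896058 of chromosome 7, inside an exon of a transcript that starts further upstream. It had 3 bases off the consensus and contained an exact decamer. The 30 bases of chr7:78895932-78895961 on the plus strand are shown.
Aen: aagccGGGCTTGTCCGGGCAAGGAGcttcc
In *Bax* an exact decamer began 201 bases before the start site at position 45466898 of chromosome 7, and no pair was found. The 30 bases of chr7:45467080-45467109 on the minus strand are shown.
Bax: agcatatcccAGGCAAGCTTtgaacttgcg
The windows of *Fas*, *Eda2r* and *Phlda3* held neither. Of the genes with a pair, *Aen* was called and *Bbc3* was not. The log2 ratios of *Bbc3* (−0.62) and of the called gene *Phlda3* (−0.66) were close. Pairs with a spacer and sites outside these windows were not searched, and a link between motif and change was not tested. The 250 bases before the start of *Phlda3*, chr1:135765835-135766084 on the plus strand, are shown as a window without a match.
Phlda3: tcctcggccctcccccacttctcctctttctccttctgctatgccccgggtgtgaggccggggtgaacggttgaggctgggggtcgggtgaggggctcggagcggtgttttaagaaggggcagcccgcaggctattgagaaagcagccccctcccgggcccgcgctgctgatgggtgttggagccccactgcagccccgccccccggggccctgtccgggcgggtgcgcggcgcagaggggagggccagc

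The receptor genes held the largest decreases of the 10 targets and, with *Fas*, one that was not called. *Eda2r* encodes the receptor for the A2 isoform of ectodysplasin (Xedar) and is a gene of chromosome X (mm10, minus strand), from 97333840 to 97377216 (ENSMUSG00000034457). It had 87, 21 and 32 counts in sEH-/- libraries and 114, 369 and 222 counts in wild-type libraries, which corresponds to 14.9, 4.24 and 7.42 CPM against 25.1, 59.9 and 39.8 CPM. The highest sEH-/- library, replicate 1, stayed below the lowest wild-type library, also replicate 1, and the spread was wide in both genotypes. The means were 8.85 ± 5.47 CPM (SD, n = 3 mice) in sEH-/- against 41.6 ± 17.5 CPM (SD, n = 3) in wild-type cells. With a log2 ratio of −2.20 ± 0.39 SE with an adjusted p of 0.022, *Eda2r* had the rank 14 from the lowest among all tested genes, and the 95% interval of its decrease ran from 2.52-fold to 8.42-fold. *Xist*, the RNA that coats the inactive X chromosome, had between 2308 and 4474 counts in the 6 libraries.

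*Tnfrsf10b* encodes the mouse receptor for the death ligand Trail, on the plus strand of chromosome 14 from 69767472 to 69784411 (ENSMUSG00000022074). Its levels were 20.02, 8.68 and 17.6 CPM in sEH-/- libraries, from 117, 43 and 76 counts, and 28.4, 45.8 and 42.3 CPM in wild-type libraries, from 129, 282 and 236 counts. The genotypes did not overlap, and again sEH-/- replicate 2 was the lowest of all and wild-type replicate 1 the lowest of its group. This gave 15.4 ± 5.98 CPM (SD, n = 3) against 38.8 ± 9.21 CPM (SD, n = 3) and a log2 ratio of −1.33 ± 0.26 SE with an adjusted p of 0.029. The gene of its ligand, *Tnfsf10*, had 30.5 ± 8.57 CPM in sEH-/- against 16.03 ± 6.22 CPM in wild-type cells (log2 ratio 0.97 ± 0.27 SE, adjusted p = 0.067), which did not pass the test with edgeR. With DESeq2 *Tnfsf10* was called higher (adjusted p = 0.0098), as it was without a filter on low counts (adjusted p = 0.041) and when either sEH-/- replicate 3 or wild-type replicate 1 was left out.

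*Fas*, the receptor for Fas ligand, lies on the plus strand of chromosome 19 from 34290666 to 34327772 (ENSMUSG00000024778). It had 40.5, 36.5 and 41.0 CPM in sEH-/- libraries and 45.3, 51.6 and 46.8 CPM in wild-type libraries. The libraries did not overlap, but the gap was narrow, and the means were 39.4 ± 2.48 CPM (SD, n = 3) and 47.9 ± 3.30 CPM (SD, n = 3). *Fas* was not called (log2 ratio −0.29 ± 0.098 SE, adjusted p = 0.11), and the 95% interval of the fold, from 1.05 to 1.42, lies below that of *Eda2r* and of *Tnfrsf10b*, which runs from 1.68 to 3.78. The ligand genes *Eda* and *Fasl* were not tested, *Eda* having a single count in the 6 libraries.

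Among the Bcl2 family genes none was called. *Bax* encodes the pore-forming protein of the mitochondrial outer membrane and lies on the minus strand of chromosome 7 from 45461697 to 45466898 (ENSMUSG00000003873). It had 60.0, 64.2 and 71.9 CPM in sEH-/- libraries and 71.7, 67.7 and 67.9 CPM in wild-type libraries, with means of 65.4 ± 6.01 and 69.1 ± 2.24 CPM (SD, n = 3 each). The ranges overlapped, and the highest level of all was that of sEH-/- replicate 3. The log2 ratio was −0.083 (SE 0.087, adjusted p = 0.61). Its 95% interval, from −0.275 to 0.109, allows a decrease of up to 1.21-fold and lies outside the intervals of the 5 called targets, the lowest of which begins at 1.3-fold for *Aen*. Of its exonic bases, 192 are shared with the gene *Gm45808* on the same strand, and reads over both genes were not counted.

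*Bbc3* (chromosome 7, 16308393 to 16318205, plus strand, ENSMUSG00000002083) and *Pmaip1* (chromosome 18, 66458533 to 66465565, plus strand, ENSMUSG00000024521) encode BH3-only proteins, which trigger apoptosis by binding protective Bcl2 proteins. *Bbc3* had 14.0, 22.8 and 18.3 CPM in sEH-/- libraries, from 82, 113 and 79 counts, and 21.8, 32.3 and 29.8 CPM in wild-type libraries, from 99, 199 and 166 counts. The groups overlapped at a single point, since sEH-/- replicate 2 lay above wild-type replicate 1. With 18.4 ± 4.39 CPM against 27.9 ± 5.49 CPM (SD, n = 3 each), the log2 ratio was −0.62 (SE 0.20, adjusted p = 0.10). It is the only one of the 10 targets for which sEH-/- replicate 2 was the highest library of its genotype.

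*Pmaip1* had 44.8, 26.03 and 39.4 CPM in sEH-/- libraries, from 262, 129 and 170 counts, and 46.4, 75.3 and 70.3 CPM in wild-type libraries, from 211, 464 and 392 counts. The genotypes were separated by the narrow step between both replicates 1, whereas the other libraries were far apart. The means were 36.8 ± 9.68 CPM and 64.0 ± 15.4 CPM (SD, n = 3 each), and the log2 ratio of −0.80 (SE 0.21) had an adjusted p of 0.056, above the limit of 0.05. *Pmaip1* was called lower with DESeq2 (adjusted p = 0.004), without a filter on low counts, and when sEH-/- replicate 1 or wild-type replicate 1 was left out. The log2 ratios of *Bbc3* and of the called gene *Aen* were nearly equal, whereas the SE was 0.20 for *Bbc3* and 0.11 for *Aen*.

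*Zmat3* (Wig1) encodes an RNA-binding zinc finger protein that regulates splicing and mRNA decay. It lies on the minus strand of chromosome 3 from 32334792 to 32366014 (ENSMUSG00000027663) and had the most counts of the 10 targets: 956, 588 and 816 in sEH-/- libraries and 1207, 2105 and 1649 in wild-type libraries. On the CPM scale the sEH-/- libraries had 163.6, 118.6 and 189.2 and the wild-type libraries 265.4, 341.6 and 295.6, so that a wide gap separated the genotypes. The log2 ratio was −0.94 (SE 0.15, adjusted p = 0.017), from means of 157 ± 35.7 and 301 ± 38.4 CPM (SD, n = 3 each).

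*Phlda3* encodes a PH-domain protein that competes with the survival kinase Akt for membrane lipids. The gene lies on the plus strand of chromosome 1 from 135766119 to 135769136 (ENSMUSG00000041801). Its levels were 86.6, 71.2 and 98.3 CPM in the sEH-/- and 130, 131 and 142 CPM in wild-type libraries. The wild-type libraries lay close together, with a coefficient of variation of 4.87%, and all were above every sEH-/- library. The means of 85.4 ± 13.6 and 134 ± 6.54 CPM (SD, n = 3 each) gave a log2 ratio of −0.66 ± 0.10 SE with an adjusted p of 0.017.

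*Aen* encodes a nuclease that takes part in the breakdown of DNA during apoptosis and lies on the plus strand of chromosome 7 from 78895854 to 78911209 (ENSMUSG00000030609). It had 59.0, 47.6 and 55.6 CPM in the sEH-/- and 71.5, 88.9 and 89.3 CPM in wild-type libraries, without overlap. The log2 ratio of −0.62 ± 0.11 SE with an adjusted p of 0.022, from 54.1 ± 5.86 and 83.2 ± 10.2 CPM (SD, n = 3 each), was close to the fold threshold. *Perp*, a membrane protein of desmosomes known from epithelia, was at the limit of detection. It lies on the plus strand of chromosome 10 from 18845020 to 18857073 (ENSMUSG00000019851) and had 11, 1 and 2 counts in the sEH-/- and 2, 14 and 9 counts in wild-type libraries. The groups overlapped, and the 95% interval of its log2 ratio (−0.71, SE 0.71, adjusted p = 0.59) ran from −2.28 to 0.853, so that a difference in either direction was not detectable at this depth.

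**Figure D2:**
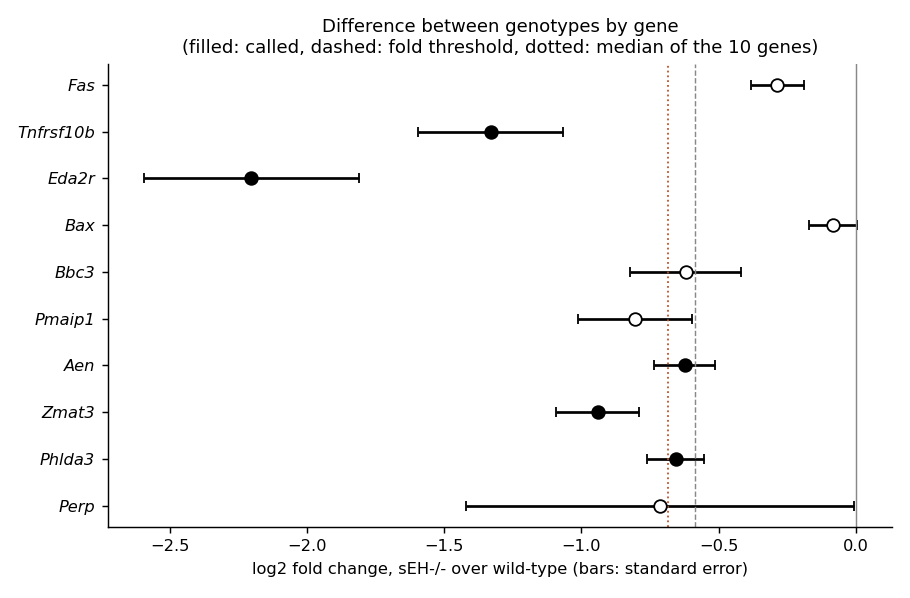
Log2 ratio of sEH-/- over wild-type for each of the 10 targets, with bars for the standard error. Filled points are genes called lower, the dashed line is the fold threshold and the dotted line the median of the 10 genes, −0.685, and the points run from *Eda2r* at −2.20 to *Bax* at −0.083.

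Per length, the order of the targets within a genotype was different from that of their changes. On the scale of CPM per kilobase of exon (GENCODE M21), *Phlda3* had the highest level in wild-type cells, 86.1 ± 4.2 (SD, n = 3), followed by *Bax* with 43.8 ± 1.42. The ranges of *Zmat3* (26.3 ± 3.36), *Pmaip1* (23.4 ± 5.65) and *Fas* (23.2 ± 1.6) over the wild-type libraries overlapped, and differences between genes within a library were not tested. The same held for *Aen* (14.3 ± 1.76) and *Bbc3* (13.2 ± 2.59) and for *Tnfrsf10b* (7.12 ± 1.69) and *Eda2r* (7.06 ± 2.97). *Perp* was the lowest with 0.739 ± 0.475. In sEH-/- cells *Phlda3* was still at the top with 54.8 ± 8.71 CPM per kilobase, *Bax* with 41.5 ± 3.81 came next, and *Fas* with 19.1 ± 1.2 stood above *Zmat3* with 13.7 ± 3.13. The receptors *Tnfrsf10b* and *Eda2r* had 2.83 ± 1.1 and 1.5 ± 0.927 CPM per kilobase. Duplicate reads had been removed, which limits the counts of abundant genes, and the targets carried between 0.0033 and 0.37 counts per exonic base on average, against a maximum of 0.97 over all tested genes. *Phlda3* was the highest of the 10 on this measure. Besides belonging to the p53 targets, 9 of the 10 carry the Gene Ontology term apoptotic process in the deposited annotation, all but *Zmat3*, and 6 carry the KEGG term p53 signaling pathway.

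Most of the 10 targets shared their lowest libraries within a genotype, with *Bax* and *Bbc3* as exceptions. Relative to the wild-type mean, their median log2 CPM was −0.558, −1.08 and −0.62 in sEH-/- replicates 1, 2 and 3 and −0.273, 0.208 and 0.0938 in wild-type replicates 1, 2 and 3. The same median over all tested genes stayed between −0.0111 and 0.00433. Of the sEH-/- libraries, replicate 2 was the lowest for 8 of the 10 targets, where it was the lowest for 30.5% of all tested genes. Of the wild-type libraries, replicate 1 was the lowest for 9 of the 10, against 37.7% of all tested genes. Wild-type replicate 2 was the highest for 7, against 33.7% of all tested genes. *Bax* had its highest wild-type level in replicate 1, and *Bbc3* its highest sEH-/- level in replicate 2. Wild-type replicate 1 had the smallest total of its genotype, with 4632688 counts, and replicate 2 the largest, with 6096440. Among sEH-/- libraries the lowest median was that of replicate 2, which had the middle total of 5013265 counts. With log library totals included as a covariate, a fit added after seeing the data, 3 of the 10 targets were called lower, *Eda2r*, *Zmat3* and *Phlda3*, and 50 genes over the whole table in place of 152.

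**Figure D3:**
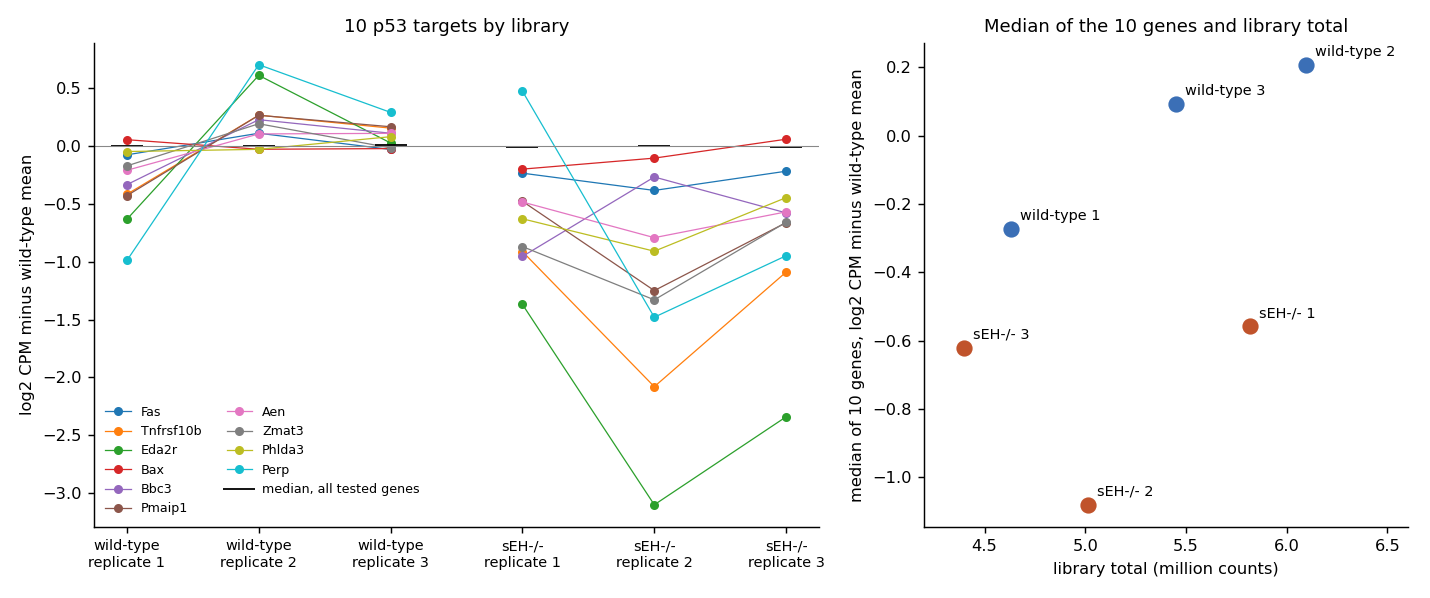
Left, log2 CPM of each target minus its wild-type mean in the 6 libraries, with lines that join the libraries of a genotype only to follow a gene and black dashes for the median of all tested genes, which stay near 0. Right, median of the 10 targets against the library total, where the wild-type medians lie between −0.273 and 0.208 and the sEH-/- medians between −1.08 and −0.558.

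Over the 6 libraries, Pearson's r of log2 CPM between pairs of targets ranged from −0.339 to 0.984 over 45 pairs, with a median of 0.769. Without *Perp*, whose counts were few, the 36 remaining pairs ranged from 0.191 to 0.984 with a median of 0.924. These values share the difference between the genotypes. After subtraction of the genotype means, the 45 pairs had a median r of 0.665 and ranged from −0.634 to 0.988, so that some pairs moved in opposite directions. The genes outside the 10 whose log2 CPM followed the mean of the standardized targets most closely, of 10268 genes averaging at least 50 counts, were *Bzw2* (r = 0.999), *Larp1b* (r = 0.998), *Amz2* (r = 0.998), *Swt1* (r = 0.998) and *Rfc1* (r = 0.996). None of these was called, and 854 of the 10268 genes had an r above 0.9. All these coefficients are descriptions over 6 libraries.

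The calls depended on single libraries. Without wild-type replicate 2 or wild-type replicate 3, 0 of the 10 targets were called, and without sEH-/- replicate 2 only *Zmat3* was (adjusted p of *Phlda3* 0.033, but with a log2 ratio of −0.53). The numbers of genes called lower over the whole table were 5, 2 and 23 in the same fits, so that calls were lost across the table as well. Without wild-type replicate 1, 7 of the 10 were called, with *Bbc3* (adjusted p = 0.048) and *Pmaip1* (adjusted p = 0.017) besides the 5, while the genes called lower over the whole table rose to 312. The log2 ratios themselves moved less, from −2.87 to −1.85 for *Eda2r*, from −1.595 to −1.03 for *Tnfrsf10b*, from −1.08 to −0.76 for *Zmat3*, from −0.75 to −0.53 for *Phlda3* and from −0.72 to −0.52 for *Aen*. Every log2 ratio of a target obtained in these fits was below 0, which follows from the lack of overlap for 7 of them, and *Perp* could not be tested without wild-type replicate 2.

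**Figure D4:**
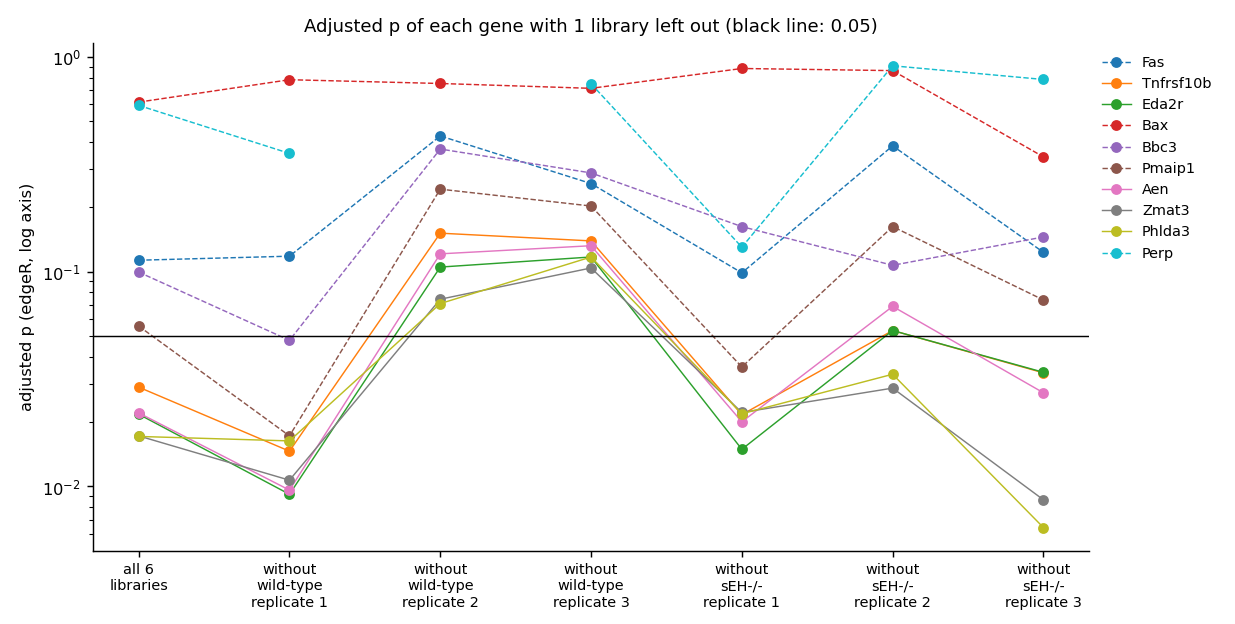
Adjusted p-values (edgeR) of each target with all 6 libraries and with each library left out, on a log axis with a black line at 0.05. Solid lines are the 5 targets called in the full fit and dashed lines the others, *Perp* having no value where it failed the filter, and without wild-type replicate 2 or 3 every point lies above the line.

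The other genes of these pathways were counted from 4 lists. Of 30 tested genes on the list of p53, its feedback regulators and its targets in cell cycle arrest and repair, 25 had a log2 ratio below 0 and 6 were called lower, with a median of −0.215, and none was called higher. Over all 13785 tested genes, 6918 had a log2 ratio below 0 and 1.1% were called lower. The list also holds the death pathway genes *Pidd1* and *Trp53inp1* and the kinase genes *Atm* and *Chek2*. *Trp53* itself, the gene of p53, had 85.5 ± 6.36 CPM in sEH-/- against 80.3 ± 2.94 CPM in wild-type cells (log2 ratio 0.09 ± 0.079 SE, adjusted p = 0.53). *Mdm2*, which encodes the ubiquitin ligase that degrades p53, had 217 ± 6.21 and 244 ± 7.58 CPM (log2 ratio −0.17 ± 0.068 SE, adjusted p = 0.17). *Cdkn1a* (p21), the main p53 target in cell cycle arrest, had 216 ± 27.7 and 261 ± 12.8 CPM (log2 ratio −0.28 ± 0.095 SE, adjusted p = 0.12). All sEH-/- libraries lay below the wild-type libraries for *Mdm2* and *Cdkn1a*, neither of which was called.

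The genes of this list that fell were *Trp53inp1*, a promoter of p53-dependent death and autophagy (log2 ratio −0.77, adjusted p = 0.024), *Polk*, a polymerase that bypasses DNA lesions (−0.88, adjusted p = 0.018), *Psrc1*, a spindle protein (−1.39, adjusted p = 0.022), *Gtse1*, which restrains p53 in G2 phase (−1.46, adjusted p = 0.022), and *Pidd1*, which assembles the caspase 2 platform (−1.31, adjusted p = 0.033). The sixth was *Gdf15*, a secreted stress cytokine (−2.57 ± 0.42 SE, adjusted p = 0.0175), which is named here after its values were seen. None of the 6 was called without wild-type replicate 2 or wild-type replicate 3, of the 5 named before *Gdf15* only *Psrc1* was without sEH-/- replicate 2, and *Pidd1* also lost its call without sEH-/- replicate 3 (adjusted p = 0.053). The promoter search was also run for these called genes, *Cdkn1a* and *Mdm2*, and found no RefSeq promoter of *Trp53inp1*. A decamer pair with a single base off the consensus lay in a promoter of *Gtse1* and in one of *Cdkn1a*, which was not called. The promoters of *Gdf15*, *Pidd1*, *Polk*, *Psrc1* and *Mdm2* held no pair within the limit of 3 bases. An exact decamer lay in one of *Polk* and in that of *Mdm2*.

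Further down the death pathways *Bok* was the only gene called with edgeR. Calls were rare over all 13785 tested genes as well, with 152 called lower (1.1%) and 208 higher. Few calls on these lists are therefore no trait of the death pathways. Of 15 tested death receptors, ligands and partners, 11 had a log2 ratio above 0 and 4 below 0, with a median of 0.136, and none was called with edgeR, where DESeq2 called 1 higher, *Tnfsf10*. The adaptor *Fadd* had 33.6 ± 9.499 CPM in sEH-/- against 24.8 ± 5.57 CPM in wild-type cells (log2 ratio 0.45 ± 0.22 SE, adjusted p = 0.25), and the initiator caspase *Casp8* 134 ± 8.06 and 119 ± 5.02 CPM (log2 ratio 0.17 ± 0.072 SE, adjusted p = 0.20). Of 16 tested genes of the Bcl2 family outside the 10, 11 were above 0 and 5 below, with a median of 0.0413. *Bok*, a relative of Bax and Bak1, was the one called, with 1.602 ± 0.547 against 5.53 ± 2.44 CPM (log2 ratio −1.81 ± 0.42 SE, adjusted p = 0.045) from 5 to 49 counts per library. The call was lost with limma-voom, with the library total as a covariate, after thinning to the smallest library, in the test against a 1.5-fold threshold and when sEH-/- replicate 1 or 2 or wild-type replicate 2 or 3 was left out. The log2 ratios of the protective genes were 0.064 (SE 0.089) for *Bcl2*, −0.078 (SE 0.071) for *Bcl2l1* and 0.11 (SE 0.11) for *Mcl1*, and that of *Bak1* was 0.028 (SE 0.069), with adjusted p-values from 0.56 to 0.85.

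Of 18 genes of the apoptosome, the caspases and their inhibitors, 10 were below 0 and 8 above, with a median of −0.0186, and none was called in either direction. *Apaf1*, the scaffold of the apoptosome and itself a p53 target, had 170 ± 9.25 CPM in sEH-/- against 195 ± 14.4 CPM in wild-type cells (log2 ratio −0.20 ± 0.078 SE, adjusted p = 0.16). The initiator *Casp9* had a log2 ratio of 0.095 ± 0.065 SE with an adjusted p of 0.42.

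**Figure D5:**
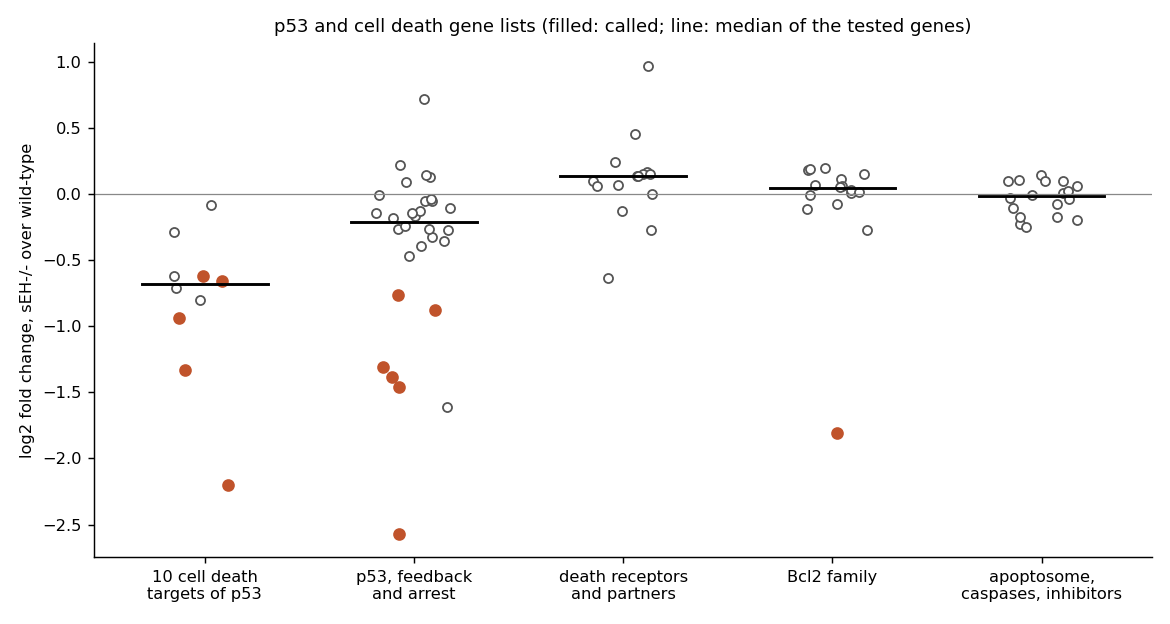
Log2 ratio of sEH-/- over wild-type for every tested gene of the 10 targets and of the 4 pathway lists, with filled points for called genes and a bar for the median of each list. The medians are −0.685 for the 10 targets and −0.215 for p53, feedback and arrest, and lie between −0.0186 and 0.136 for the 3 lists of the death machinery.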

How the data were processed

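Bulk RNA sequencing of 6 macrophage libraries, 3 per genotype and 1 per mouse, was analysed from a deposited table of raw counts for 19309 genes. The labels name 3 replicates per genotype, and the study gives 3 mice per group. Upstream, the authors used Trimmomatic for trimming, STAR for alignment to mm10 and Picard for the removal of duplicates. Reads of ribosomal or mitochondrial origin and reads with several alignments were also dropped. The remaining exonic reads were assigned to genes by featureCounts with regard to strand, leaving out reads shared between genes. The deposited counts are not normalized, and duplicates were removed without molecular identifiers. The submitters' processing notes name Trimmomatic 0.39, STAR 2.7.7a, Picard 2.21.7, featureCounts 1.6.5 and DESeq2 1.30.0. Methods and notes differ in tool versions, and methods and labels in the library kit.

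Tests were run with edgeR 4.0.16 under R 4.3.3 (TMM, glmQLFit, glmQLFTest, no covariates, mean count above 5, Benjamini-Hochberg adjustment). TMM factors lay between 0.982 and 1.03 and the common biological coefficient of variation was 0.0866. The tested genes held 99.8% of all counts. The SE is the absolute log2 ratio over the root of the F statistic, and 95% intervals use the t distribution with the degrees of freedom of the test. Chi-square values per degree of freedom between libraries of a genotype lay between 2.26 and 4.94, so that no pair agreed within sampling noise. Correlations used log2 CPM with a prior count of 2. The code was tested on simulated data.

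Alternatives were DESeq2 1.42.0, limma 3.58.1 (voom), RLE factors, raw library sizes, other filters, a replicate block, no fold threshold, a test against a 1.5-fold threshold (glmTreat) and leaving out each library. The library total as a covariate and thinning to the smallest library were chosen after seeing the data. The 10 genes and all lists were chosen with earlier results of these data known. Named besides the 10 targets were *Ephx2*, 15 fixed pathway genes (1 of them not reported here), of each list the called genes with the highest mean count, at most 5, and the 5 genes most like the targets. Coordinates are those of the deposited table (mm10). Exonic lengths came from GENCODE M21 and promoters from RefSeq, both of the same build.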

Additional observations from a re-analysis of the deposited data

How the results depend on the processing

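Of the 10 targets, 5 were called lower in the main test, 6 with DESeq2, 5 with limma-voom and 5 with the replicate block, 3 with the library total as a covariate and 0 in the test against the 1.5-fold threshold. Leaving out each library gave 0 to 7. Genes called lower over the whole table numbered 152 in the main test, 202 with DESeq2 and 128 with limma-voom. They numbered 240 without a filter, 85 with the replicate block, 50 with the covariate and 3 against the threshold. With a library left out they numbered 2 to 312. Genes called higher numbered 208, and 329 without the fold threshold, 121 with the covariate, 7 against the threshold and 4 to 346 with a library left out. Among death receptors and partners 0 were called higher, but 1 with DESeq2, without a filter and with the replicate block, and 0 to 1 with a library left out. In the Bcl2 family 1 was called lower (*Bok*), 2 were without the fold threshold, and 0 to 1 with a library left out. The count was 0 with limma-voom, with the block, against the threshold, with the covariate and after thinning. It was also 0 with at least 10 counts in every library, a filter that removed *Bok* before the test, with 5 and 9 counts in sEH-/- replicates 2 and 3. On the list of p53, feedback and arrest 6 were called lower, 0 against the threshold and 0 to 7 with a library left out, and 0 were called higher, or 0 to 1 with a library left out.

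Same-numbered libraries of both genotypes did not deviate together (r = −0.0818, −0.26 and −0.0367 for the numbers 1, 2 and 3), which gave no sign that the numbers pair the libraries, and the labels state no pairing. With the replicate block, *Tnfsf10* was called higher (adjusted p = 0.038), while *Bok* (adjusted p = 0.067) and *Pidd1* (adjusted p = 0.052) lost their calls. Of all values of single named genes under the alternatives, 472 kept direction and side of the threshold, 51 fell short of it, 10 passed it, and 1 reversed, *Bak1* with a log2 ratio of −0.0023 after thinning. *Perp* had too few counts to be tested in 4 alternatives, and *Bok* and *Ephx2* were not tested with at least 10 counts in every library. The causes of these changes were not tested.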

Other observations

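Mice carry a pair of decoy receptors for Trail in addition to *Tnfrsf10b*, and both had values below those of wild-type cells without being called. *Tnfrsf22* had 15.2, 9.48 and 13.2 CPM in the sEH-/- libraries and 16.5, 22.4 and 19.9 CPM in the wild-type libraries, without overlap (log2 ratio −0.63 ± 0.20 SE, adjusted p = 0.095, edgeR). The log2 ratio of *Tnfrsf23* was −0.27 (adjusted p = 0.13). On the list of p53, feedback and arrest, 3 more genes had an adjusted p close to the limit of 0.05: *Mdm4*, the partner of Mdm2 that holds p53 inactive (log2 ratio −0.47, adjusted p = 0.052), *Ccng1*, a cyclin among the feedback regulators (−0.33, adjusted p = 0.054), and *Ckap2*, a microtubule-associated protein with few counts (−1.61, adjusted p = 0.054). Those of *Mdm4* and *Ccng1* were also short of the fold threshold. *Bcl2l13*, a mitochondrial relative of Bcl2, had an adjusted p of 0.048 with a log2 ratio of −0.28, below the fold threshold. These genes were chosen after their values were seen, and none passed the criteria.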
